A study of Mus musculus with 24 samples.

Results

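Selplg, Ccr7, Ccr9, Cxcr4 and S1pr1 encode 5 cell surface proteins through which blood progenitors stay in the marrow, leave it or seed the thymus. They were taken by symbol as a selectin ligand, 3 chemokine receptors and a sphingosine 1-phosphate receptor, and are 5 of the 17149 genes in the table of normalised counts. All 5 passed the filter on low values. They are described across 8 sorted groups of mouse bone marrow progenitors.

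Progenitors roll on vessel walls by binding selectins, and PSGL-1, the product of Selplg, is the main ligand of P-selectin on white cells. Cxcr4 answers CXCL12 made by marrow stroma and holds stem and progenitor cells in the marrow, while S1pr1 draws cells toward the sphingosine 1-phosphate of blood and lymph. Ccr7, the receptor of CCL19 and CCL21, and Ccr9, the receptor of CCL25, both serve the entry of lymphoid progenitors into the thymus.

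The study asked what loss of the transcription factor gene Tal1 changes in progenitors that do or do not report Rag2, a gene of lymphoid commitment. All cells were LSK cells (lineage-negative, Sca-1+, Kit+) of bone marrow, sorted as CD135- (called HSC in the sample titles) or CD135+ (LMPP, lymphoid-primed multipotent progenitors), CD135 being the product of Flt3. Each population was split into GFP-negative and GFP-positive cells by a Rag2-GFP reporter that every mouse carried. Ctrl samples were labelled wild type (Tal1 F/F) Rag2GFP, so their Tal1 alleles were floxed with no Cre named. KO samples were labelled VaviCre Tal1F/F Rag2GFP, and Vav-iCre is active across blood cells, so deletion was not limited to 1 progenitor stage. Genotype, CD135 gate and GFP gate gave 8 groups of n = 3 libraries. Mouse age was not given in the sources used here. Whether the replicates came from separate animals is not stated either, and p-values therefore reflect only the spread among these libraries, some of which may be technical. Each of 6 description numbers in the labels was shared by 4 libraries of 1 genotype, the labels not saying what the number stands for. Within a genotype it ties the same libraries as the replicate number.

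Library totals ranged from 6906083 to 11969093 normalised counts, and depth in reads is unknown because the values are not whole reads. Fewer genes exceeded 1 normalised count in replicate 2 of Ctrl HSC GFP-positive cells (11982 genes) and replicate 3 of KO LMPP GFP-positive cells (11684) than in the other libraries (13583 to 15957). These 2 are called libraries of low detection, and both hold high values of members described here. In 13 of the 24 libraries, these 2 among them, no gene stood at exactly 0. The others held 755 to 2126 genes at 0. Whether the deposited values were made by more than a scaling was not stated, so values near 0 may not be comparable between libraries. Tal1 was lower in all KO libraries than in all Ctrl libraries within each of the 4 populations, most narrowly in HSC GFP-positive cells (308 at most in KO and 326 at least in Ctrl), though the labels do not name the deleted exons. Rag2 was higher in all GFP-positive than in all GFP-negative libraries. Flt3 stood at 177 to 3256 in HSC and 3623 to 8621 in LMPP, and Kit at 2327 or above throughout. Ly6a, which encodes Sca-1, ranged from 31.3 to 1703.

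The members lie on 5 chromosomes of GRCm38 in the GENCODE M21 annotation. Selplg (ENSMUSG00000048163) spans chromosome 5, 113818536 to 113832644, on the minus strand. Ccr7 (ENSMUSG00000037944) spans chromosome 11, 99144196 to 99155077, minus strand. Cxcr4 (ENSMUSG00000045382) is at chromosome 1, 128588199 to 128592293, minus strand, and S1pr1 (ENSMUSG00000045092) at chromosome 3, 115710433 to 115715072, minus strand. Ccr9 (ENSMUSG00000029530) is annotated on the plus strand of chromosome 9 from 123678439 to 123784330, and this long model shares exon bases with Slc6a20a, Gm17200 and AC165425.1. Gm17200 lies on the plus strand like Ccr9, and the other 2 lie on the minus strand. Strand use and the handling of reads in shared bases were not given in the sources used here, so how such reads were counted is unknown. Slc6a20a itself reached 22.6 normalised counts at most and Gm17200 37.5.

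The RefSeq promoter table (GRCm38.p6) held Cxcr4 and Ccr9, the chemokine receptor genes that were higher in the GFP-positive library of all 12 pairs described below. The 250 bases before each start site are shown, 5′ to 3′ on the gene's strand, with E-boxes (CANNTG, the motif class bound by TAL1 with its E-protein partners) in capitals. They are chr1:128592300-128592549 (minus strand) for Cxcr4 and chr9:123766961-123767210 (plus strand) for Ccr9, whose RefSeq start lies inside the longer GENCODE model.
Cxcr4: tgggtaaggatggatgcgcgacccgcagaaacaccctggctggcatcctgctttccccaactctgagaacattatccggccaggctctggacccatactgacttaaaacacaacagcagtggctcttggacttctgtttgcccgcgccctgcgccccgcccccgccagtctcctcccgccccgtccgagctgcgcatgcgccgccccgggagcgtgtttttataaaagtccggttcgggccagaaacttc
Ccr9: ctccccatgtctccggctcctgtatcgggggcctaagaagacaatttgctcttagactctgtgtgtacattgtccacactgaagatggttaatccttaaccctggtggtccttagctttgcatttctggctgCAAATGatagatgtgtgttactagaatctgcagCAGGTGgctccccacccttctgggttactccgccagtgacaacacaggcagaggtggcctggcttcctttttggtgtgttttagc
Ccr9 held 2 E-boxes, CAAATG 118 bases and CAGGTG 85 bases before the start site, and Cxcr4 held none in this window. CANNTG reads the same on both strands and occurred in 66.2% of the 32851 promoter windows of the table, and CAGGTG, searched on both strands and one of the forms of CANNTG, in 17.2%. AGATAA, the GATA motif, was searched on both strands and was in neither member's window, against 9.99% of all. GC content was 61.2% for Cxcr4 and 50.4% for Ccr9 (median 52.4%), with 19 and 3 CpG dinucleotides (median 6). These matches are descriptions of the sequence and no binding was measured.

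Set per kilobase of the principal annotated transcript, Selplg and Cxcr4 were the abundant members, with means over the 24 libraries of 396 and 340.1 normalised counts per kb. Ccr9 averaged 41.7, Ccr7 23.98 and S1pr1 14.4 on the same scale. Selplg and Cxcr4 also stood above 250 normalised counts in every library, whereas Ccr7 and Ccr9 ran from near 0 to 471 and 802. The order depends on the length used. Over all annotated exon bases Selplg averaged 171.8 and Cxcr4 339.6 per kb, the reverse order, and Ccr9 with its long model averaged 10.6 per kb.

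**Figure D1:**
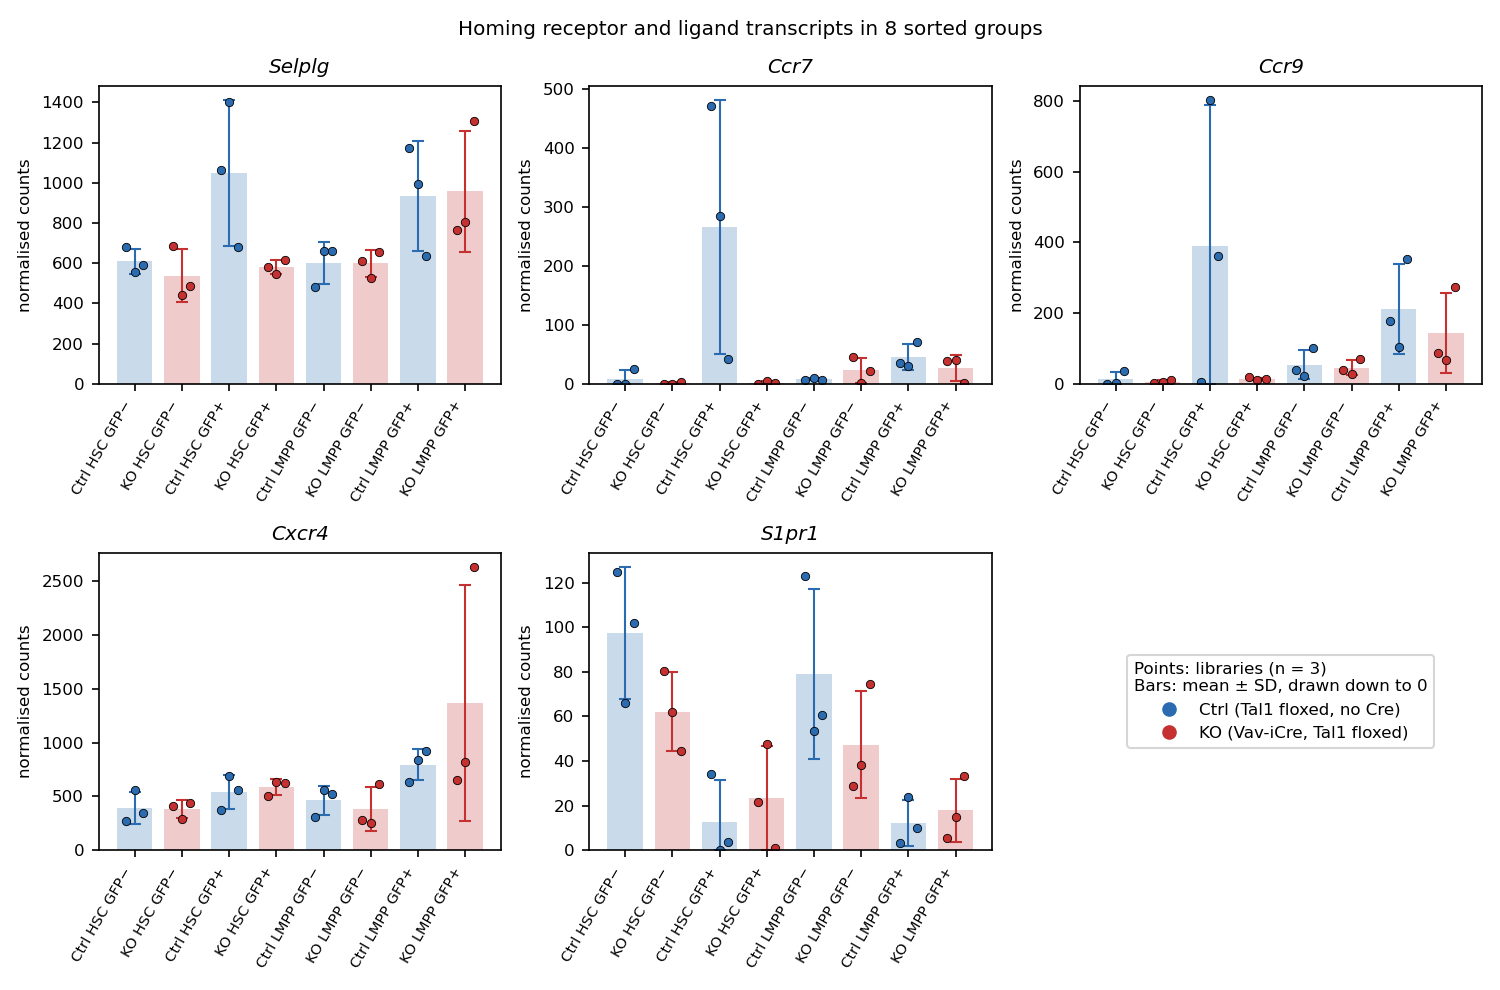
Normalised counts of the 5 members (y axis, linear from 0) in each of the 24 libraries, by sorted group (x axis). Points are libraries, bars are group means and whiskers the SD (n = 3). S1pr1 is highest in the 4 GFP-negative groups, and Ccr7 reaches 471 in Ctrl HSC GFP-positive cells while it stays at 3.88 or below in KO HSC GFP-positive cells.

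GFP-positive and GFP-negative cells were compared first, since the reporter reads Rag2, a gene of lymphoid commitment. Averaged over the 4 populations, 4 members were higher in GFP-positive cells (Selplg, Ccr7, Ccr9 and Cxcr4) and S1pr1 was lower. All 5 passed at an adjusted p under 0.05 in limma, where 7.23% of the 16215 genes tested passed, 2.13% as higher and 5.09% as lower. The members were chosen with earlier results of these data known, so their share is not an independent contrast with that of all genes. The calls of Selplg and Ccr7 were lost in some settings given below. In these bulk libraries, fewer cells of a type and less RNA per cell cannot be told apart. The 4 populations and the averages share libraries and are not independent comparisons.

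S1pr1, the receptor for egress toward blood and lymph, had the smallest adjusted p of the members. In Ctrl HSC it stood at 125, 65.9 and 102 normalised counts in the GFP-negative libraries and at 34.35, 0.031 and 3.48 in the GFP-positive ones. In Ctrl LMPP the values were 123, 53.4 and 60.5 against 3.06, 23.7 and 9.99. All GFP-negative libraries of both Ctrl populations were above all GFP-positive ones. In KO HSC it was 80.3, 61.8 and 44.5 in GFP-negative and 21.5, 47.8 and 1.004 in GFP-positive libraries. In KO LMPP it was 29.0, 38.4 and 74.5 against 5.38, 15.1 and 33.2. The KO ranges overlapped in both populations by 1 GFP-positive library. Over all libraries, 9 of 12 GFP-positive values lay below every GFP-negative value. The averaged difference was -2.20 on the log2(value + 4.1) scale (SE 0.43, adjusted p = 0.00214), where the pseudocount of 4.1 normalised counts equals 0.5 ppm of an average library. S1pr1 was lower in the GFP-positive library of all 12 pairs with the same description number and population. By description number it was lower in 6 of 6, and an exact two-sided sign-change test gave p = 0.03125, the smallest that 6 numbers allow.

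Cxcr4, the marrow retention receptor, moved the other way. In Ctrl HSC the GFP-negative libraries held 269, 558 and 345 normalised counts and the GFP-positive ones 376, 693 and 558, with overlapping ranges. Ctrl LMPP had 306, 558 and 523 against 632, 834 and 918, with no overlap. KO HSC had 413, 288 and 443 against 506, 635 and 626. That population and KO LMPP, with 280.1, 252 and 613 against 652, 823 and 2633, also had no overlap. The highest value, 2633 in KO LMPP GFP-positive replicate 3, came from a library of low detection. Cxcr4 rose by 0.90 on average (log2, SE 0.22, adjusted p = 0.00996), and without the 2 libraries of low detection by 0.70 (adjusted p = 0.00864). It was higher in 12 of 12 pairs and in 6 of 6 description numbers (exact two-sided p = 0.03125, the smallest possible).

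Ccr9, the CCL25 receptor, had a wider range. Ctrl HSC GFP-negative libraries held 0.099, 1.63 and 35.9 normalised counts, and the GFP-positive ones 5.19, 802 and 362. In Ctrl LMPP the values were 39.5, 21.8 and 100.4 against 178, 103 and 352. Replicate 1 of the Ctrl HSC GFP-positive group was far below its 2 partners and inside the GFP-negative range, while the Ctrl LMPP ranges did not overlap. KO HSC had 1.19, 3.73 and 10.5 in GFP-negative and 17.8, 10.3 and 13.0 in GFP-positive libraries. KO LMPP had 37.8, 28.3 and 68.7 against 87.6, 68.4 and 272.5. Both KO populations overlapped narrowly. The averaged rise was 2.06 (log2, SE 0.56, adjusted p = 0.0231), and 1.60 (adjusted p = 0.0438) without the 2 libraries of low detection. Ccr9 was higher in 12 of 12 pairs and 6 of 6 description numbers (exact two-sided p = 0.03125, the smallest possible).

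Ccr7, the CCL19 and CCL21 receptor, was high in 1 group. Ctrl HSC GFP-positive libraries held 471, 285 and 41.6 normalised counts, against 0.096, 0 and 24.95 in GFP-negative ones. In Ctrl LMPP the values were 35.8, 29.6 and 70.8 in GFP-positive and 6.71, 9.06 and 7.04 in GFP-negative libraries. Neither Ctrl population overlapped. KO HSC was near 0 in both gates, with 0.054, 0 and 2.60 in GFP-negative and 0.10, 3.88 and 2.01 in GFP-positive libraries. KO LMPP had 45.2, 1.43 and 20.96 in GFP-negative against 39.3, 40.6 and 0.47 in GFP-positive libraries, overlapping widely. Ccr7 rose by 1.74 on average (log2, SE 0.48, adjusted p = 0.0268). By description number it was higher in 4 of 6 only (exact two-sided p = 0.125), and by pair in 9 of 12. The average call was lost with a pseudocount of 0.1 ppm (adjusted p = 0.0555).

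Selplg changed least in fold terms. In Ctrl HSC it was 680.05, 558 and 589 normalised counts in GFP-negative and 1065, 1404 and 679.7 in GFP-positive libraries. In Ctrl LMPP it was 479.8, 661 and 661 against 1174, 994 and 637. Both Ctrl populations overlapped because 1 GFP-positive library in each fell within the GFP-negative range. KO HSC had 687, 439.6 and 485 against 583, 547 and 615, and KO LMPP 613, 527 and 658 against 767, 803 and 1306. KO LMPP was the population without overlap. Selplg rose by 0.53 on average (log2, SE 0.15, adjusted p = 0.0337). It was higher in 10 of 12 pairs and 6 of 6 description numbers (exact two-sided p = 0.03125, the smallest possible). The call was lost when values were scaled to each library's total (0.37, adjusted p = 0.133) or quantile normalised (0.36, adjusted p = 0.124), and in 11 of 24 fits that left out 1 library.

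The median gene was 0.14 lower (log2) in GFP-positive cells on the deposited scale and 0.26 lower when values were scaled to library totals. Relative to the median gene on the deposited scale, the averaged differences were 0.66 for Selplg, 1.87 for Ccr7, 2.20 for Ccr9, 1.04 for Cxcr4 and -2.06 for S1pr1. No member changed direction under either scaling.

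**Figure D2:**
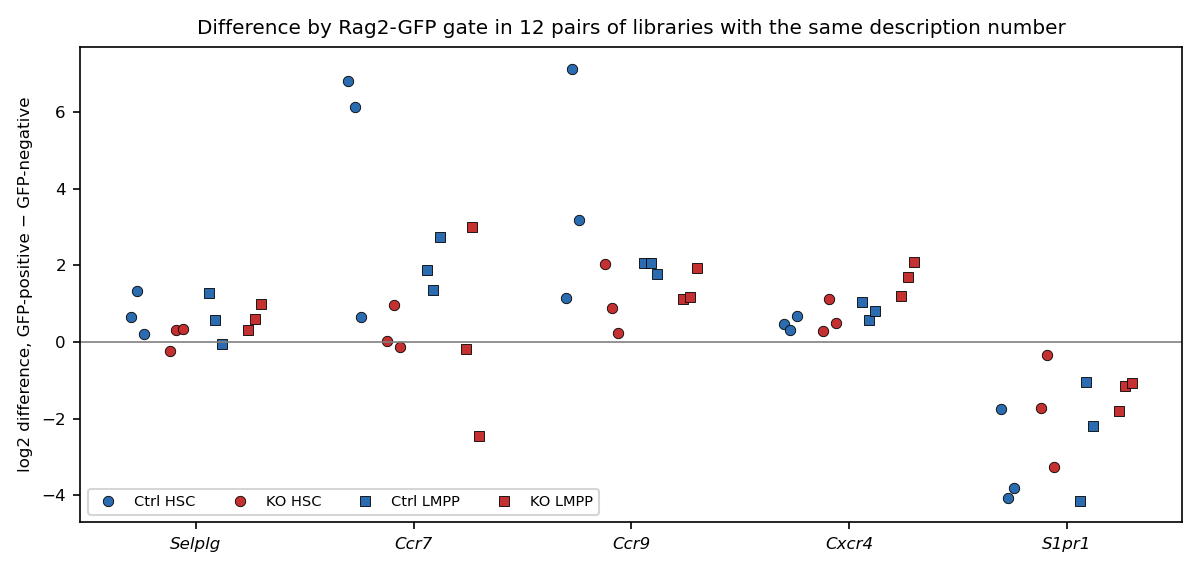
Log2 difference (y axis, GFP-positive minus GFP-negative) of each member (x axis) in 12 pairs of libraries that share a description number and a population. Blue is Ctrl, red is KO, circles are HSC and squares LMPP. All 12 points of Ccr9 and Cxcr4 are above 0, all 12 of S1pr1 are below 0, and Ccr7 has 3 below 0.

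Within single populations fewer differences passed. In Ctrl HSC, Ccr7 rose by 4.54 (log2, SE 0.97, adjusted p = 0.00971) and S1pr1 fell by 3.21 (SE 0.87, adjusted p = 0.0437), 2 of 5 members where 2.72% of genes passed. The same members had no overlap between the gates, as did 17.8% of genes. Ccr9 differed by 3.83 (SE 1.12, adjusted p = 0.0648), and without Ctrl HSC GFP-positive replicate 1 by 5.78 (adjusted p = 0.000576). Selplg differed by 0.72 (SE 0.31, adjusted p = 0.21). With the description number as a block, Ccr9 passed (adjusted p = 0.0324) and S1pr1 did not (adjusted p = 0.0521). The S1pr1 call was lost with both libraries of low detection left out (-2.53, adjusted p = 0.0877) and held in 8 of 24 fits that left out 1 library. Neither call held when the 6 libraries were fitted alone (adjusted p = 0.204 for Ccr7 and 0.291 for S1pr1), a fit in which no gene of the table passed.

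With the main setting, no member passed in the other 3 populations. In Ctrl LMPP, 0.0555% of genes passed, and 4 members (Ccr7, Ccr9, Cxcr4 and S1pr1) had no overlap between the gates, against 14.8% of genes. The largest of these differences was that of S1pr1 at -2.46 (SE 0.87, adjusted p = 0.614). In KO HSC, 0.376% of genes passed and Cxcr4 alone had no overlap, against 15.5% of genes. In KO LMPP, 1.15% of genes passed, and Cxcr4 and Selplg had no overlap, against 19.1%. Cxcr4 differed there by 1.66 (SE 0.43, adjusted p = 0.0574), and by 1.05 (adjusted p = 0.241) without the 2 libraries of low detection. With the description number as a block it passed (adjusted p = 0.0121), as it did in 5 of 24 fits that left out 1 library.

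Genes listed as markers of other cells also differed between the gates. In Ctrl HSC the summed granulocyte and monocyte genes (8 of 8 listed in the table) stood at 11488 to 28289 in GFP-negative and 55948 to 123907 in GFP-positive libraries. Erythroid genes (6 of 6) stood at 266 to 464 against 0.189 to 121, and B lineage genes (4 of 8) at 114 to 192 against 3.35 to 97.9. The lowest sums, 0.189 and 3.35, came from replicate 2, a library of low detection. Replicates 1 and 3 of the GFP-positive group held erythroid sums of 27.7 and 121 and B lineage sums of 80.5 and 97.9. Dendritic cell genes (9 of 10, among them Flt3 of the sorting gate) stood at 822 to 1223 against 1709 to 3364. Stroma and endothelium genes (4 of 7) stood at 467 to 552 against 735 to 2266, a sum made mostly of Pecam1 (means 470 and 1412). The rest of that list had lower means in GFP-positive libraries: Col1a2 (17.9 and 1.23), Cxcl12 (8.80 and 0.139) and Lepr (6.32 and 4.50). None of these 5 sums overlapped between the gates. Each of these lists held a gene below 1 in all 3 Ctrl HSC GFP-positive libraries: Ly6g, Epor, Cd79a, Clec9a and Cxcl12. So did the T cell (Zap70) and NK cell (Klrb1c) lists described next. The other listed granulocyte and monocyte genes all had higher means in GFP-positive libraries, such as Elane (703 and 7445). Mpo made up most of the granulocyte and monocyte sum in both gates of Ctrl HSC (means 15958 and 73484). Dendritic cell genes went both ways, with Cox6a2 higher (0.0319 and 17.7) and Zbtb46 lower (49.7 and 7.20). A low gene alone does not show that a cell type was absent.

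Mature T cell genes (6 of 10) overlapped in Ctrl HSC, at 11.98 to 119 against 79.9 to 220.03. Cd3e, which defines T cells, was 41.7 in Ctrl HSC GFP-positive replicate 1, the library with the highest Ccr7, and 0.117 or below in the other 5 Ctrl HSC libraries. The 2 tabulated of 6 NK cell genes summed to 269.5 in replicate 2 of that group, where Ccr9 was highest, and to 3.77 in replicate 1. In KO HSC the granulocyte and monocyte sum was 6272 to 7661 in GFP-negative and 15494 to 54833 in GFP-positive libraries, the erythroid sum 2007 to 3124 against 442 to 1082, and the stroma and endothelium sum 622 to 763 against 888 to 1176. In KO LMPP GFP-positive replicate 3, where Cxcr4 was highest, the erythroid sum was 6398 and that of stroma and endothelium 3845. The GFP-negative libraries of that population held at most 1958 and 807. Pecam1 made up most of the stroma and endothelium sums here too. It stood at 605 to 745 against 881 to 1171.5 in KO HSC, and reached 3796 in KO LMPP GFP-positive cells. In LMPP the mature T cell sum was 86.5 to 189 in GFP-negative and 28.5 to 687 in GFP-positive libraries, and Cd3e was 0.202 or below throughout. Whether other cell types were present, and their part in the members' differences, was not tested.

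Loss of Tal1 was compared within each population. Ccr7 was lower in KO than in Ctrl HSC GFP-positive cells, at 1.998 ± 1.89 against 266 ± 215 normalised counts (SD, n = 3), and was the 1 member that passed (-4.97 on the log2 scale, SE 0.97, adjusted p = 0.0198). In that comparison 0.432% of genes passed, and Ccr7 and Selplg had no overlap between genotypes, against 14.3% of genes. Selplg stood at 582 ± 33.6 against 1049 ± 362 (-0.79, SE 0.31, adjusted p = 0.222) and Ccr9 at 13.7 ± 3.79 against 389.9 ± 399 (-3.00, SE 1.12, adjusted p = 0.208). These rest on the same 3 Ctrl HSC GFP-positive libraries as the gate difference above. The Ccr7 call held with both libraries of low detection left out (-4.64, adjusted p = 0.0127) and in 20 of 24 fits leaving out 1 library. It was lost without Ctrl replicate 2 or any 1 of the 3 KO replicates of that population (adjusted p up to 0.0773), with array weights (-4.59, adjusted p = 0.166) and in the 6 libraries alone (adjusted p = 0.588). In the same libraries the erythroid sum was 442 to 1082 in KO and 0.189 to 121 in Ctrl, and the granulocyte and monocyte sum 15494 to 54833 in KO and 55948 to 123907 in Ctrl. Neither overlapped between genotypes, and their part in the difference was not tested.

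No member passed for genotype in HSC GFP-negative (0.16% of genes passed), LMPP GFP-negative (0.0555%) or LMPP GFP-positive cells (0.0432%), and all 5 overlapped between genotypes in each, where 12.7%, 10.8% and 9.55% of genes did not. S1pr1 was 62.2 ± 17.9 in KO against 97.5 ± 29.6 in Ctrl HSC GFP-negative cells (SD, n = 3). Cxcr4 in LMPP GFP-positive cells was 1369.6 ± 1098 in KO against 794 ± 147 in Ctrl. Averaged over the populations none passed, where 0.469% of genes did. The averaged Ccr7 difference was -1.54 (SE 0.48, adjusted p = 0.278), and an exact two-sided test over 3 against 3 description numbers gave p = 0.1, the smallest possible. The averages were -0.99 for Ccr9, -0.24 for Selplg, 0.08 for Cxcr4 and -0.01 for S1pr1 (SE 0.56, 0.15, 0.22 and 0.43). With 95% intervals of -0.36 to 0.53 for Cxcr4 and -0.91 to 0.88 for S1pr1, changes within those bounds were not resolved.

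The difference between genotypes in the effect of the GFP gate was tested directly. In HSC the Ccr7 gate effect differed by -4.26 between KO and Ctrl (log2, SE 1.37, unadjusted p = 0.00454, adjusted p = 0.512) and that of Ccr9 by -2.77 (SE 1.59, adjusted p = 0.738). Neither passed, and 0.00617% of genes did. No member passed in LMPP, where 0.0% of genes passed. For genotype and population, none passed in GFP-negative cells (0.0% of genes) or GFP-positive cells (0.0308%). There the Ccr7 term was 3.798 (SE 1.37, adjusted p = 0.294) and the Selplg term 0.82 (SE 0.43, adjusted p = 0.425). A Ccr7 response to the gate that depends on genotype was therefore not shown by the test of the difference.

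LMPP and HSC were compared last. Ccr9 was higher in LMPP by 2.005 averaged over genotype and gate (log2, SE 0.56, adjusted p = 0.0387), 1 of 5 members where 4.18% of genes passed and 2.47% were higher. It was higher in 5 of 6 description numbers (exact two-sided p = 0.0625). The call held with both libraries of low detection left out (2.17, adjusted p = 0.00551), in 10 of 24 fits leaving out 1 library, and not with a pseudocount of 2 ppm (1.28, adjusted p = 0.0928). Cxcr4 differed by 0.42 (SE 0.22, adjusted p = 0.367), Ccr7 by 0.59, Selplg by 0.17 and S1pr1 by -0.09.

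Within single gates and genotypes no member passed between LMPP and HSC, where 0.37% of genes passed in Ctrl GFP-negative, 0.894% in Ctrl GFP-positive, 0.876% in KO GFP-negative and 0.611% in KO GFP-positive cells. Among KO GFP-negative cells Ccr9 had no overlap between LMPP and HSC (44.9 ± 21.1 against 5.13 ± 4.80, SD, n = 3, log2 difference 2.45, adjusted p = 0.542), as did 22.3% of genes. Among KO GFP-positive cells Ccr9, Cxcr4 and Selplg had none, against 14.5% of genes. Ccr9 was 143 ± 113 in LMPP against 13.7 ± 3.79 in HSC there (2.81, adjusted p = 0.352). Among Ctrl GFP-positive cells the order of the Ccr9 means was the opposite, 389.9 ± 399 in HSC and 211 ± 128 in LMPP, with overlapping ranges. All 5 members overlapped between LMPP and HSC in Ctrl GFP-negative and Ctrl GFP-positive cells, where 14.8% and 14.3% of genes did not.

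**Figure D3:**
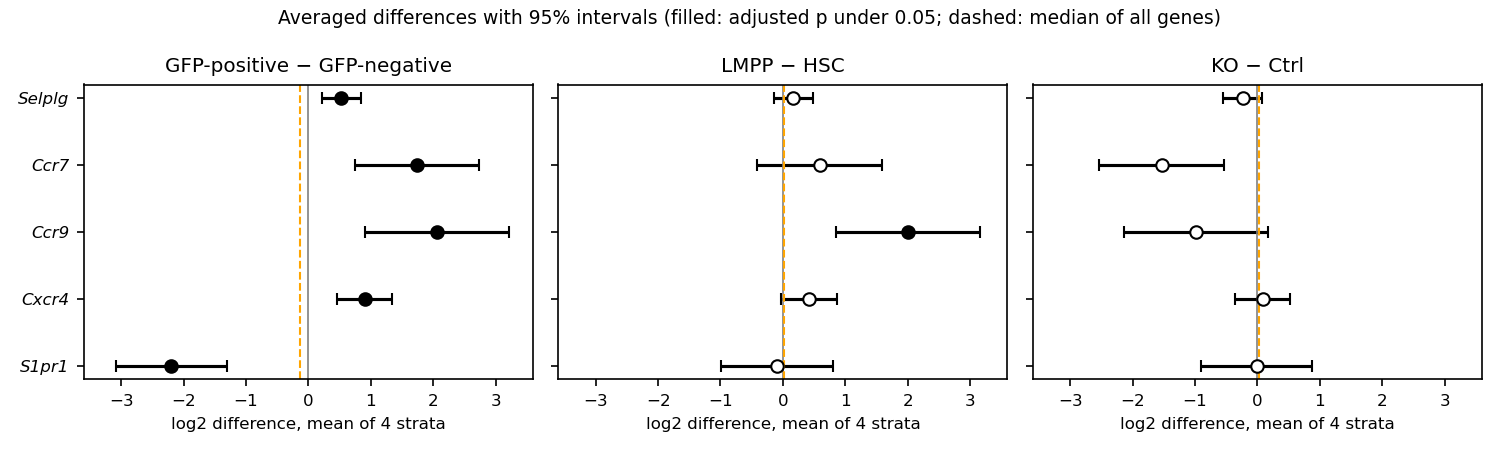
Averaged log2 differences (x axis) of the 5 members by GFP gate, population and genotype, with 95% intervals. Filled points passed at an adjusted p under 0.05, and dashed lines mark the median of all genes. The 5 members pass by gate, Ccr9 alone by population (2.005) and none by genotype.

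Ordered by group mean, Selplg and Ccr9 were highest in Ctrl HSC GFP-positive cells (1049 ± 362 and 389.9 ± 399), as was Ccr7, and lowest in KO HSC GFP-negative cells (537 ± 132 and 5.13 ± 4.80). Ccr7 was also lowest there, at 0.885 ± 1.49. Cxcr4 ran from 381 ± 82.4 in KO HSC GFP-negative to 1369.6 ± 1098 in KO LMPP GFP-positive cells. S1pr1 ran from 12.2 ± 10.5 in Ctrl LMPP GFP-positive to 97.5 ± 29.6 in Ctrl HSC GFP-negative cells. Neighbouring groups in each order overlapped, with 2 exceptions. Ccr7 in Ctrl LMPP GFP-negative cells (7.60 ± 1.27) did not overlap the next group, KO HSC GFP-positive cells (1.998 ± 1.89). Ccr9 in KO LMPP GFP-negative cells (44.9 ± 21.1) did not overlap KO HSC GFP-positive cells (13.7 ± 3.79). Both pairs differ in more than 1 of genotype, population and gate, and their share over all genes was not computed. Between the 12 pairs of groups compared above, 9.55% to 22.3% of genes had no overlap, so these exceptions are not read as a result.

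Over the 24 libraries the members' log2 values were correlated with each other at Pearson r of 0.11 (Ccr7 and Cxcr4) to 0.59 (Selplg and Cxcr4), and S1pr1 with the other 4 at -0.41 to -0.61. These are descriptions over libraries that share groups, gates and detection. Among 9778 genes searched, those closest to each member were Coro2a, Fth1 and Pkib for Selplg (r = 0.84, 0.82 and 0.80). Slc18a1, Ablim1 and H2-Ob were closest to Ccr9 (0.87, 0.86 and 0.86), and Eml4, Tuba1b and Nusap1 to Cxcr4 (0.84, 0.84 and 0.83). Herpud2, H13 and Unc93b1 were closest to Ccr7 (0.77, 0.77 and 0.76), and Prkg1, Rab38 and Rec8 to S1pr1 (0.74, 0.73 and 0.73).

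Genes that make, couple or share the members' pathways were read from 6 fixed lists in the averaged gate comparison. There 4 of the 96 tested rose and 12 fell, against 2.13% and 5.09% of all genes. Of 14 tested genes of the sphingosine 1-phosphate pathway none rose and 2 fell, Mfsd2b, an exporter of the lipid in red cells and platelets (-2.24, adjusted p = 0.00222), and Spns2, its exporter in endothelium (-0.66, adjusted p = 0.0237). The list's median was -0.31 against -0.14 for all genes. In Ctrl HSC alone, where 2.72% of genes passed, Mfsd2b fell by 4.94 (adjusted p = 0.00229). There Cd69, whose product binds S1pr1 and takes it off the surface, rose by 2.38 (adjusted p = 0.019). Of 25 genes of receptor coupling and desensitisation, Rasgrp2, an activator of Rap1, rose (0.60) and 5 fell. The 5 were the arrestin gene Arrb1 (-0.73), the regulator of G-protein signalling Rgs1 (-1.74), the inhibitory G-protein subunit Gnai1 (-1.15) and the receptor kinases Grk3 and Grk5 (-1.37 and -1.496). Their median was 0.01.

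Of 11 tested other chemokine receptors, 1 rose, Ccr2 (1.58, adjusted p = 0.00886), the monocyte receptor of CCL2, and none fell (median -0.06). Of 25 integrins and activators, Itgal, the alpha chain of LFA-1 (1.008, adjusted p = 6.5e-05), and Itgax (2.07) rose, and Itga2b, Esam, Itga6 and Itga2 fell (-2.52, -2.63, -0.86 and -2.11). Their median was -0.13. Itga2b and Esam are known in stem cells and megakaryocytes. Of 19 genes of selectin ligand synthesis and other selectin ligands, Podxl alone fell (-2.21) and none rose (median -0.03). A count of 1 in 19 is near the 5.09% of all genes that fell. Fut7 and the other glycosyltransferase genes that make PSGL-1 bind selectins were among the 18 that did not pass. None of the 2 tested ligand genes of the receptors passed.

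Between LMPP and HSC averaged, 4 of the 96 listed genes tested rose and 8 fell, where 4.18% of all genes passed in either direction. On the integrin list 2 rose (Icam1 by 1.24, Itgax by 1.76) and 3 fell (Itga2b by 3.72, Itga4 by 0.56, Itga6 by 0.61). Among selectin ligand genes Cd44 (0.48) and St3gal6 (1.83) rose and Sele (-2.07) and Podxl (-1.60) fell. Mfsd2b (-3.96), Cers2 (-0.55) and Cxcr2 (-1.55) also fell, and no coupling gene passed. For genotype, none of the 96 tested genes of the 6 lists passed in the averaged comparison or in HSC GFP-positive cells. Of all genes, 0.469% and 0.432% passed in these comparisons.

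**Figure D4:**
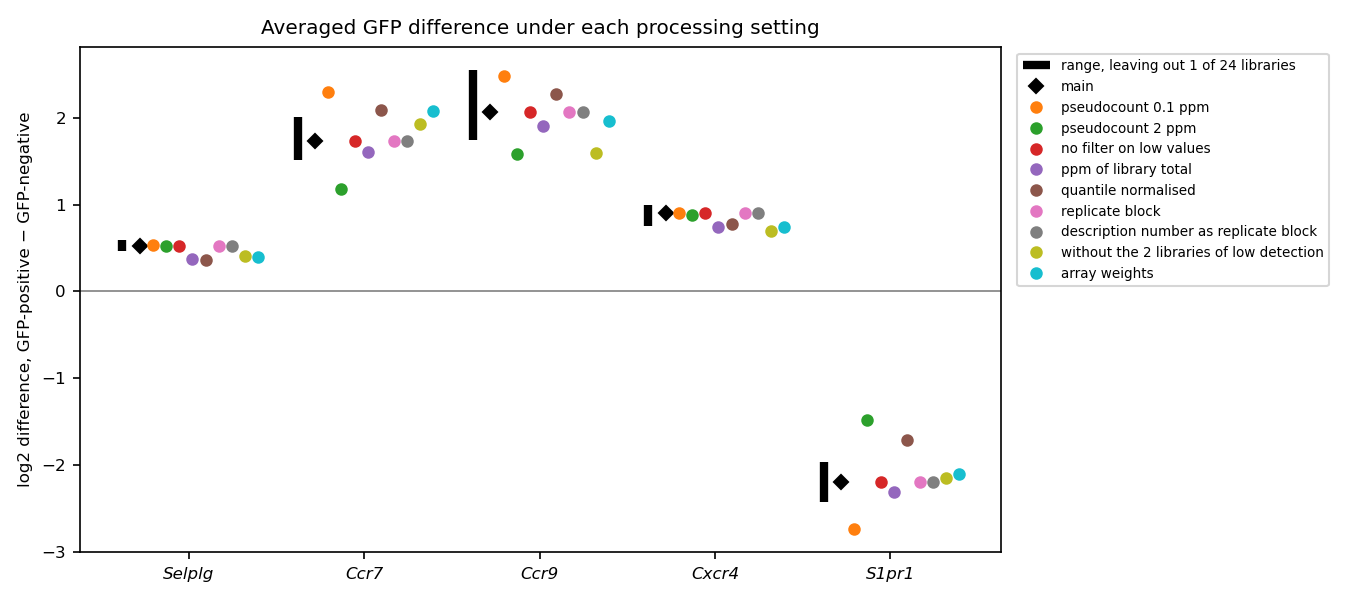
Averaged log2 difference by GFP gate (y axis) of each member (x axis) under the main setting (black diamond), 9 alternative settings (coloured points) and the range over 24 fits that each left out 1 library (black bar). No value crosses 0 for any member, and S1pr1 is the one below 0.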

How the data were processed

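RNA of sorted cells had been sequenced for 76 cycles from low-input libraries, per the labels' protocols. The submitters' processing notes list Trimmomatic 0.33, HTSeq 0.6.1, edgeR without a version, and the build mm10. Aligner, strand setting and normalisation function were not given in the sources used here. Values are signal: normalised counts that the authors deposited. Of those above 0, 0.594% were within 0.001 of a whole number, so no count model was fitted and no counting interval or floor is given.

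Genes with at least 1 ppm of the library total in at least 3 libraries were kept (16215). A model with 8 group means was fitted to log2(value + 4.1) of the 24 libraries in limma 3.58.1 (R 4.3.3) with a trend on intensity, 16 residual and 9.53 prior degrees of freedom, after the script was tested on simulated data. There were 19 comparisons: 12 between pairs of groups, 3 averaged and 4 interactions. p-values were adjusted by Benjamini-Hochberg over all genes within each, with a threshold of 0.05. Intervals are 95%. Exact tests took the description number as the unit. A log2(value + 4.1) difference understates changes of genes near 0.

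The members and gene lists were chosen with earlier results of these data known. From each list up to 4 passing genes were named by smallest adjusted p, with counts for all, and a few beyond that rule (Itga2, Itgax, Rasgrp2, Grk5 and Fut7 by gate, Itgax by population) were chosen after their values were seen. The 3 genes of highest correlation with each member were sought among those of at least 5 ppm on average. Log2 differences are printed where the unadjusted p was under 0.1 or the comparison was averaged, 42 of 95, a rule set after the alternatives had been seen.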

Additional observations from a re-analysis of the deposited data

How the results depend on the processing

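Of the 9 member differences that passed, none changed sign in any alternative. Over 42 printed log2 differences and all settings other than leaving out 1 library, 371 values kept their direction and call, 14 lost the call, 11 gained it and 4 changed sign. The sign changes were S1pr1 at a pseudocount of 0.1 ppm (KO against Ctrl averaged 0.13, LMPP against HSC averaged 0.11) and Cxcr4 in KO against Ctrl averaged (-0.086 with array weights, -0.021 without the 2 libraries of low detection). Leaving out 1 library, those 3 averages ran from -0.19 to 0.22, from -0.33 to 0.14 and from -0.071 to 0.18. None of the other 53 differences passed in any setting, and 23 of them changed sign in at least 1. Both settings named here, low detection and array weights, were chosen after seeing the data.

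The number of members passing by gate in Ctrl HSC was 2, and 1 with a pseudocount of 0.1 ppm, without the 2 libraries of low detection or with array weights, and 0 with only the groups compared. In KO HSC against Ctrl HSC GFP-positive cells it was 1, and 0 with only the groups compared or with array weights. By gate in KO LMPP it was 0, and 1 with a pseudocount of 2 ppm or array weights. By population it was 1 averaged, and 0 with a pseudocount of 2 ppm. In KO GFP-negative cells it was 0, and 1 with only the groups compared or array weights. In Ctrl GFP-negative and KO GFP-positive cells it was 0, and 1 with array weights. Leaving out 1 library gave 3 to 5 members by gate averaged (3 without Ctrl HSC GFP-negative replicate 2 or KO LMPP GFP-negative replicate 2) and 0 to 3 by gate in Ctrl HSC (0 without GFP-negative replicate 1 or 2 of Ctrl HSC, 3 without Ctrl HSC GFP-positive replicate 1 or KO LMPP GFP-positive replicate 3). It gave 0 to 1 by gate in KO LMPP, 0 to 2 by genotype in HSC GFP-positive cells and 0 to 1 by population averaged. The number of genes passing by gate in Ctrl HSC was 441, 0 with only the groups compared, 150 with array weights and 722 without the 2 libraries of low detection. By genotype in HSC GFP-positive cells it was 70, 0 with only the groups compared, 4 with array weights, 192 scaled to library totals and 310 without the 2 libraries of low detection.

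Deviations from group means were correlated across genes between libraries of the same replicate number. No comparison had all 3 same-number correlations above 0.1. With 3 libraries a group this rule cannot show whether libraries of the same number share a source. Within a genotype the description number ties the same libraries by label, and the pairs and exact tests rest on that label. With the replicate number as a block, 1 member (Cxcr4, adjusted p = 0.0236) passed by gate in KO LMPP, Ccr9 passed in Ctrl HSC (adjusted p = 0.0353) and S1pr1 did not (adjusted p = 0.0504). With the description number as the replicate block, 1 member passed in KO LMPP (Cxcr4, adjusted p = 0.0121), and the Ctrl HSC values were 0.0324 and 0.0521.

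Scaling to library totals moved 2 of 40 group levels by more than 1 SD. Depth in reads is unknown, so values of Ccr7, Ccr9 and S1pr1 near 0 carry no stated counting error.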
